A study of Mus musculus with 3 samples.

Results

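The hair placode cells of embryonic mouse back skin were compared according to how much Shh transcript they held, among cells in which no Sox9 transcript was counted. A cell counted as placode-gated when the transcripts of Dkk4, Edar, Fgf20, Bmp2 and Ltb together made up at least 4 of every 10000 of its unique molecular identifiers (UMIs, each marking 1 captured RNA molecule) and those of Krt1, Krt10 and Krtdap together made up fewer than 5 (fewer than 20 in the total epithelium library). Of 4683 cells in all, 1205 met this gate and 846 of these had 0 Sox9 UMIs. Cells with 2 or more Shh UMIs are called Shh-high (363 cells), cells with 0 are called Shh-negative (320 cells), and the 163 cells with 1 Shh UMI entered neither group. Shh-high cells numbered 24 in the total epithelium library, 171 in placode-enriched library 1 and 168 in placode-enriched library 2, and Shh-negative cells numbered 46, 136 and 138.

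The study profiled dorsal skin epithelium of wild-type C57BL/6JOlaHsd embryos at E14.5, when the primary hair placodes are forming. Epithelium was freed with Dispase II, cells were dissociated with TrypLE, and live cells were sorted either as total epithelium or as placode-enriched cells positive for MAdCAM-1, an adhesion molecule on placode cells. There were 1 total epithelium library and 2 placode-enriched libraries, each from 3 to 4 pooled littermates, so a library carries a litter and a sort together and no single embryo can be followed. No embryo carried a mutation or received a treatment, and both groups of cells came from every library.

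The hair placode is a thickening of the embryonic epidermis that starts each follicle. Wnt and ectodysplasin signals set it up, and its cells then make Sonic hedgehog, the ligand encoded by Shh, which signals to the dermal condensate beneath and to epithelial neighbours. A cell that receives the ligand through Patched and Smoothened turns on Gli1 and Ptch1, so these genes report reception rather than production. Sox9 marks the early follicle stem cell precursors that lie above and around the Shh-producing cells. Cells with a Sox9 UMI were left out here, though a cell with 0 Sox9 UMIs may still have held its transcript.

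The cells were chosen by their counts of Shh, Sox9 and the gate genes, so the levels of these genes are a description and were left out of every test. Shh (chromosome 5, 28456815 to 28467256 on GRCm38) stood at 225, 223 and 214 UMIs per 1000000 (CPM) in Shh-high cells. Values are given throughout in the order total epithelium, placode-enriched 1, placode-enriched 2. Dkk4, a secreted Wnt antagonist and placode marker, stood at 896, 860 and 801 CPM in Shh-high cells and at 628, 735 and 416 CPM in Shh-negative cells. Dkk4 is part of the gate, so its presence in both groups follows from the selection. A Shh UMI was seen in 41.8%, 63.8% and 64.7% of the gated cells without Sox9 (95% exact binomial intervals of 30.8 to 53.4%, 58.7 to 68.7% and 59.7 to 69.4%), against 1.51%, 9.51% and 8.02% of cells that held under 1 gate UMI per 10000, whose median depth was higher (22443, 25046 and 27661.5 UMIs against 18809, 19518 and 20359). With every cell thinned to 5000 UMIs these shares were 18.99%, 35.9% and 35.0% against 0.397%, 2.54% and 1.88%. At the edge of the gate, 0 of 7, 24.0% and 19.05% of the cells with a score of 4 to 5 were Shh-high, and 5.88%, 19.5% and 21.95% of the cells just outside it, with a score of 3 to 4.

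Depth was compared between the groups. The median Shh-high cell held 16911, 18766 and 20776.5 UMIs, and the median Shh-negative cell 20724.5, 20032.5 and 19569.5. Shh-high cells were the shallower group in the total epithelium library and placode-enriched library 1, most in the former, and the deeper group in library 2. The placode score itself moved with Shh: its median was 16.4, 15.8 and 15.0 in Shh-high cells and 6.93, 9.91 and 8.70 in Shh-negative cells, so cells of a like score, from 8 to 20, were also compared. Markers of melanoblasts, immune cells and red cells summed to under 12 CPM in every group. Only 1 of 8 immune and 2 of 7 red cell markers were among the genes used, so their sums cannot show that these cells were absent. The dermal fibroblast list summed to 1322 to 2020 CPM in Shh-high and 1279 to 1765 CPM in Shh-negative cells. It held 8 of its 12 genes, among them Postn, seen in 94.1 to 96.4% of cells of each group and library. This sum need not come from fibroblasts.

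Shh-high cells differed from Shh-negative cells of the same libraries in placode transcription factor and guidance genes, several of which were higher, and in basal epidermal and glycolytic genes, several of which were lower. Of 9908 genes tested with edgeR on the 6 sums of UMIs (2 groups in 3 libraries, with the library as a block), 315 (3.18%) were higher and 332 (3.35%) lower in Shh-high cells, 6.53% in all, at an adjusted p under 0.05. The higher genes changed more: their median log2 fold change was 0.66 against -0.34 for the lower genes, and 76 rose and 35 fell by more than 1 on the log2 scale. The difference had the same sign in all 3 libraries for 305 of the higher (3.08% of the genes tested) and 314 of the lower genes (3.17%). The contrast itself differed between the placode-enriched and total epithelium libraries for 25 genes (0.252%), 5 with a more positive value after the sort (0.0505%) and 20 with a more negative one (0.202%). Scaling by library sums alone, without the TMM factors, gave 399 higher and 229 lower genes, so the balance of directions depends on scaling. Without the library block 31 and 10 genes passed, and without placode-enriched library 1 110 and 107, while without placode-enriched library 2 230 and 203 passed.

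Among genes averaging at least 10 CPM, the 12 with the largest rises included genes of iron export, matrix, transport and placode transcription. Slc40a1, which encodes the iron exporter ferroportin, stood at 15.6, 18.7 and 20.9 CPM in Shh-high cells and at 0, 1.77 and 3.83 CPM in Shh-negative cells (149 against 16 UMIs in all). The groups did not overlap, and the log2 fold change was 2.91 ± 0.32 (SE, adjusted p = 1.29e-07). Hmcn1, encoding the extracellular matrix protein hemicentin 1, stood at 24.5, 50.6 and 73.2 CPM against 6.28, 11.3 and 14.3 CPM (log2 2.20 ± 0.16, adjusted p = 9.22e-11). Abcc4, an efflux transporter, stood at 51.3, 57.9 and 55.1 CPM against 7.32, 11.3 and 15.0 CPM (log2 2.12 ± 0.17). Both were higher in Shh-high cells of every library, which the choice of these 12 genes required, and their groups did not overlap.

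Tgfb2 (chromosome 1, 186622792 to 186705989 on GRCm38), a ligand of the transforming growth factor beta family, rose from 8.37, 28.7 and 56.5 CPM in Shh-negative cells to 95.9, 129 and 135 CPM in Shh-high cells (log2 1.71 ± 0.15, adjusted p = 1.61e-09). Csgalnact1, an enzyme that starts chondroitin sulfate chains, rose by 1.91 ± 0.30 on the log2 scale, the calcium-binding protein gene S100a6 by 1.88 ± 0.15 and Limch1, a regulator of non-muscle myosin, by 1.81 ± 0.22. Krt8, a keratin of simple epithelia, was low in both groups (15.6, 20.9 and 22.03 CPM against 9.42, 2.13 and 9.41 CPM) and rose by 1.70 ± 0.28, and its partner Krt18 rose by 0.94 ± 0.18. These keratins also belong to the Merkel cell and periderm marker lists, and of the other Merkel markers Sox2 stood at 0.71 on the log2 scale without passing the test.

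**Figure D1:**
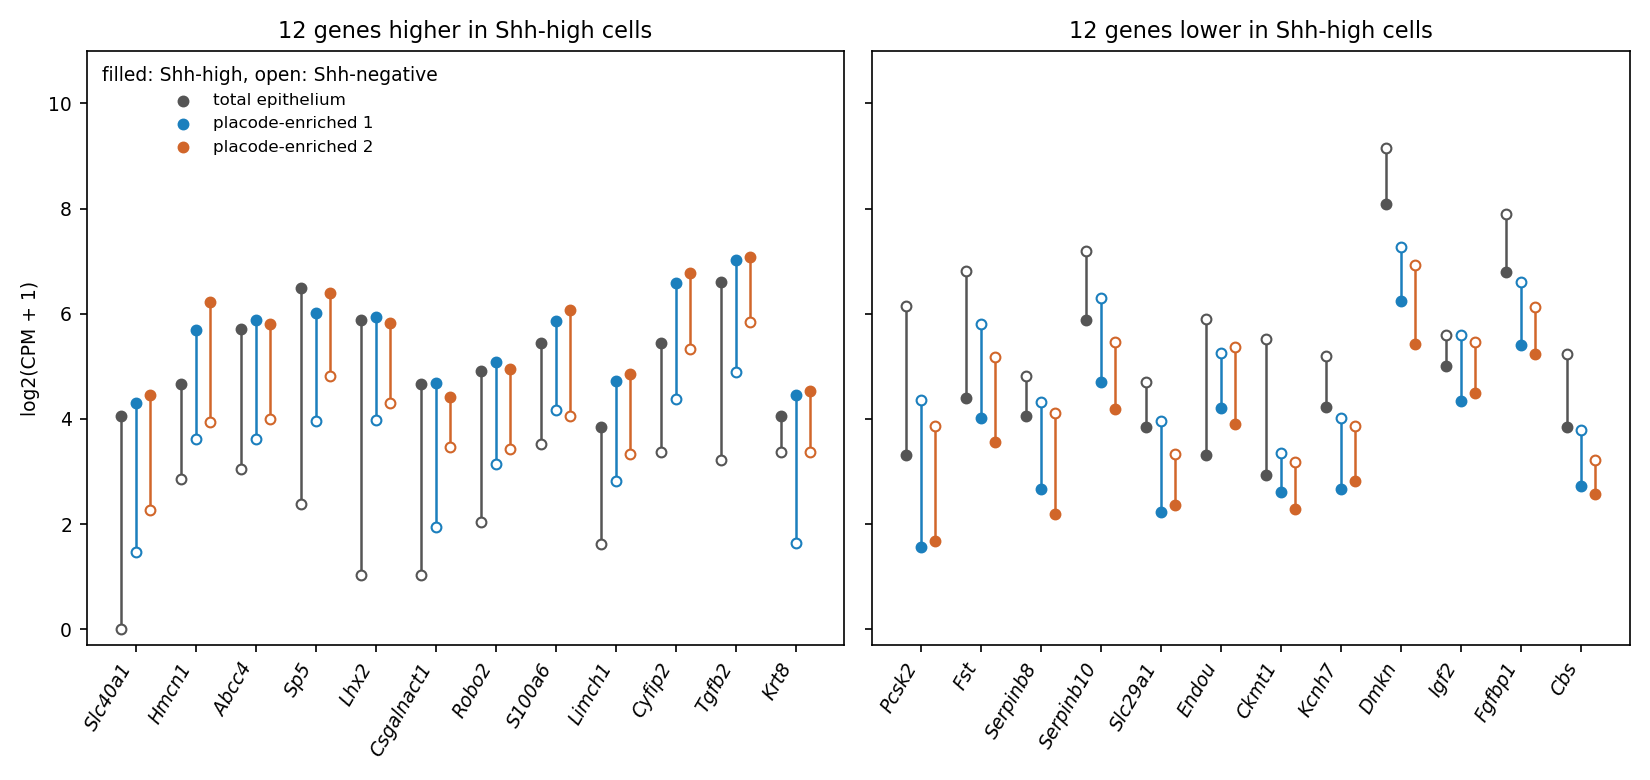
Level of the 12 genes most raised and the 12 most lowered in Shh-high cells, as log2(CPM + 1) of summed UMIs, in each library. Filled points are Shh-high and open points Shh-negative cells, and a line joins the groups of a library. All lines of a panel run in the same direction because the genes were chosen for the same sign in every library. Slc40a1 is at 0 CPM in Shh-negative cells of the total epithelium library.

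Among genes averaging at least 10 CPM, Pcsk2 and Fst had the largest falls. Pcsk2, a prohormone convertase, stood at 8.92, 1.98 and 2.20 CPM in Shh-high and at 70.1, 19.5 and 13.6 CPM in Shh-negative cells (log2 -2.99 ± 0.28, adjusted p = 4.31e-09). Fst, which encodes follistatin, a secreted binder of activins and some bone morphogenetic proteins, stood at 20.1, 15.3 and 10.7 CPM against 111, 54.9 and 35.2 CPM (log2 -1.92 ± 0.16, adjusted p = 9.54e-10). For both genes every Shh-high value lay below every Shh-negative value. Dmkn, also among the 12 with the largest falls, is a secreted product of the upper epidermis and stood at 270, 75.2 and 41.9 CPM against 564, 154 and 120 CPM, with a higher level in both groups of the total epithelium library (log2 -1.23 ± 0.09, adjusted p = 5.17e-11).

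The protease inhibitor gene Serpinb8 fell by 1.84 ± 0.26 on the log2 scale. Serpinb10, annotated as a polymorphic pseudogene on GRCm38, fell by 1.52 ± 0.13. Endou, a secreted endonuclease gene, fell by 1.45 ± 0.18, the potassium channel gene Kcnh7 by 1.30 ± 0.24 and the mitochondrial creatine kinase gene Ckmt1 by 1.32 ± 0.30. Fgfbp1, a carrier of fibroblast growth factors, stood at 109, 41.5 and 36.6 CPM against 239, 96.0 and 68.7 CPM and fell by 1.12 ± 0.10. The nucleoside transporter gene Slc29a1 (-1.50) and Cbs (-1.12), a cystathionine synthase gene, also passed, but without placode-enriched library 1 their log2 fold changes of -1.08 and -1.04 no longer did.

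The cells with 1 Shh UMI, which were in neither tested group, mostly lay between them. In placode-enriched library 1, Sp5 stood at 14.53 CPM in cells with 0 Shh UMIs, 34.0 with 1, 39.8 with 2 to 3, 69.0 with 4 to 7 and 111 with 8 or more. In library 2 the values were 27.2, 31.3, 46.7, 111 and 129 CPM. Pthlh rose along the same classes from 75.5 to 119, 167, 202 and 211 CPM in library 1 and from 71.8 to 116, 128, 174 and 194 CPM in library 2. Fst went the other way, from 54.9 to 28.2, 20.9, 10.9 and 11.1 CPM in library 1, and from 35.2 to 28.0, 13.2, 9.05 and 7.33 CPM in library 2. Among Shh-high cells alone, then, these levels still differed between the Shh classes. Ptch1 moved between 37.2 and 49.3 CPM in library 1 and between 34.1 and 48.3 CPM in library 2 with no order. The classes also differed in depth and placode score. Median depth was 17847 UMIs at 2 to 3 Shh UMIs and 21163 at 8 or more in library 1. In library 2 it was 19823 and 23234. The median score in libraries 1 and 2 was 18.96 and 18.47 at 8 or more, against 14.17 and 15.22 at 4 to 7. Whether depth or score has a part in these differences was not tested. The upper classes of the total epithelium library held only 14, 6 and 4 cells, and the classes had no test.

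**Figure D2:**
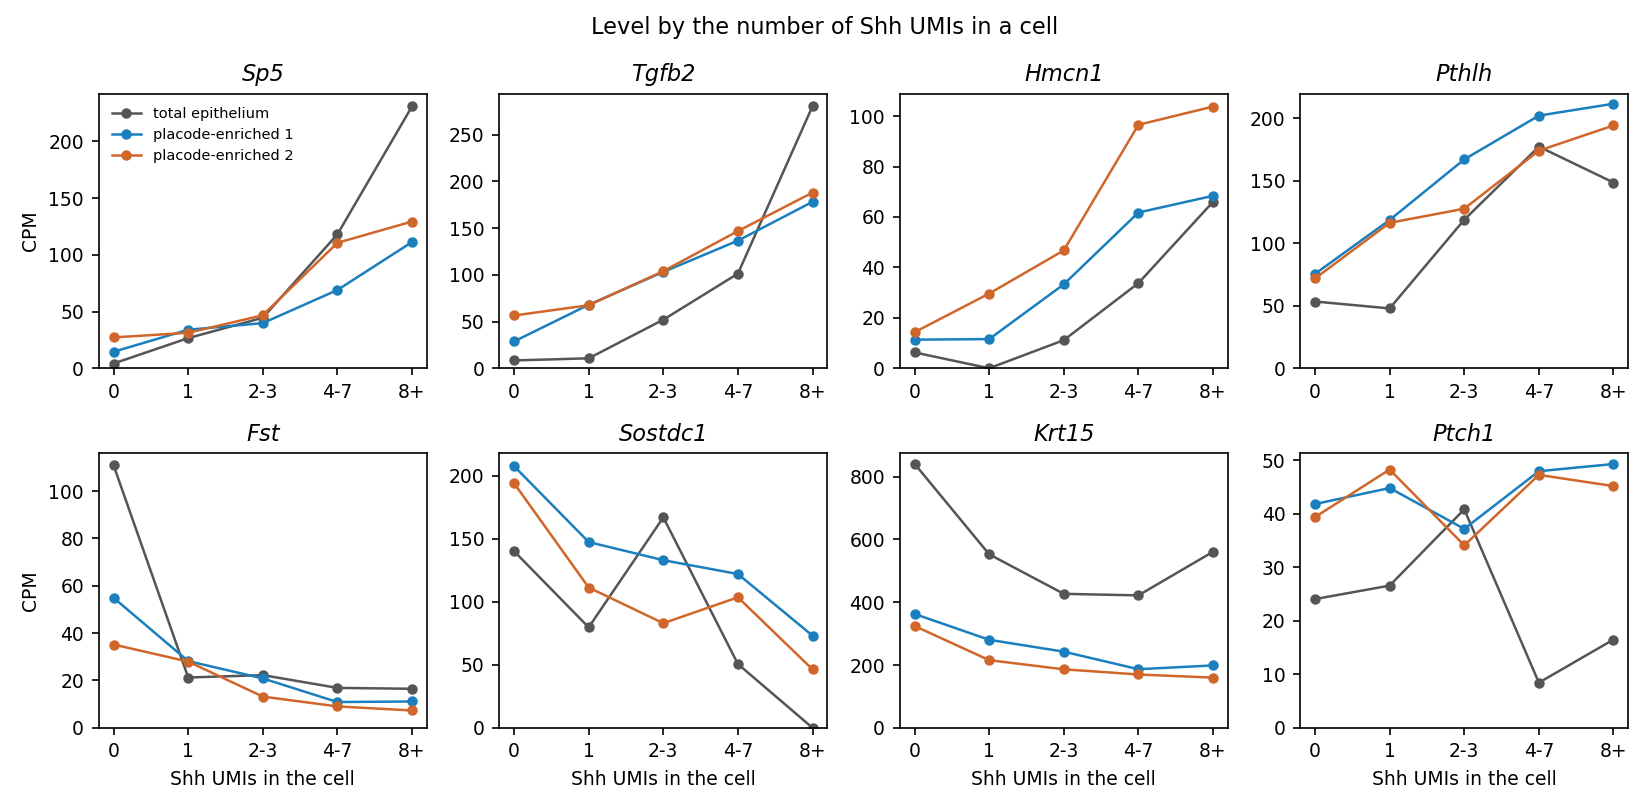
Level in CPM of 8 genes (vertical axes, each from 0) against the number of Shh UMIs in the cell (horizontal axis), with 1 line per library over gated cells without Sox9 UMIs. In the placode-enriched libraries Sp5, Tgfb2, Hmcn1 and Pthlh are higher and Fst, Sostdc1 and Krt15 lower at 8 or more Shh UMIs than at 0, and Ptch1 stays between 34.1 and 49.3 CPM there; the total epithelium classes hold 46, 9, 14, 6 and 4 cells.

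Hedgehog genes are given by role. Of 5 tested genes that process, release or carry the ligand, 2 rose and 0 fell, where 3.18% and 3.35% of all genes tested did. Their median log2 was 0.53, against 0.00 over all genes tested. Gpc3, a cell-surface proteoglycan that binds Hedgehog, stood at 225, 225 and 224 CPM in Shh-high cells and at 127, 159 and 151 CPM in Shh-negative cells (log2 0.53 ± 0.07, adjusted p = 4.30e-06). Scube1, of a family of secreted carriers of the ligand, rose by 0.81 ± 0.16, and without placode-enriched library 1 the same log2 value of 0.81 did not pass. Disp1, which encodes the ligand's releaser Dispatched 1, stood at 20.1, 20.9 and 25.1 CPM against 17.8, 16.3 and 16.7 CPM and did not pass (log2 0.40 ± 0.18, adjusted p = 0.216). The acyltransferase gene Hhat was too low to test, at 1.77 to 5.51 CPM.

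Among genes of reception and response, Ptch1 (chromosome 13, 63508328 to 63573598 on GRCm38), the receptor and general target gene, stood at 29.0, 43.5 and 40.2 CPM in Shh-high and at 24.1, 41.8 and 39.4 CPM in Shh-negative cells, and the groups overlapped (log2 0.02 ± 0.13, adjusted p = 0.978). Gli1, the pathway's target and effector, stood at 6.69, 20.6 and 22.6 CPM against 10.5, 18.8 and 16.7 CPM (log2 0.20 ± 0.18, adjusted p = 0.658). Gli2, Gli3 and Smo likewise did not pass, at log2 values of -0.17, 0.04 and 0.24.

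Gas1, a Hedgehog co-receptor gene, fell from 44.99, 28.0 and 17.4 CPM to 15.6, 16.1 and 7.16 CPM (log2 -1.08 ± 0.19, adjusted p = 2.68e-04). The other co-receptor genes Cdon (-0.39 ± 0.34) and Boc (-0.66 ± 0.26, adjusted p = 0.140) did not pass, and the Hedgehog-binding protein gene Hhip was too low to test, with at most 1.13 CPM.

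**Figure D3:**
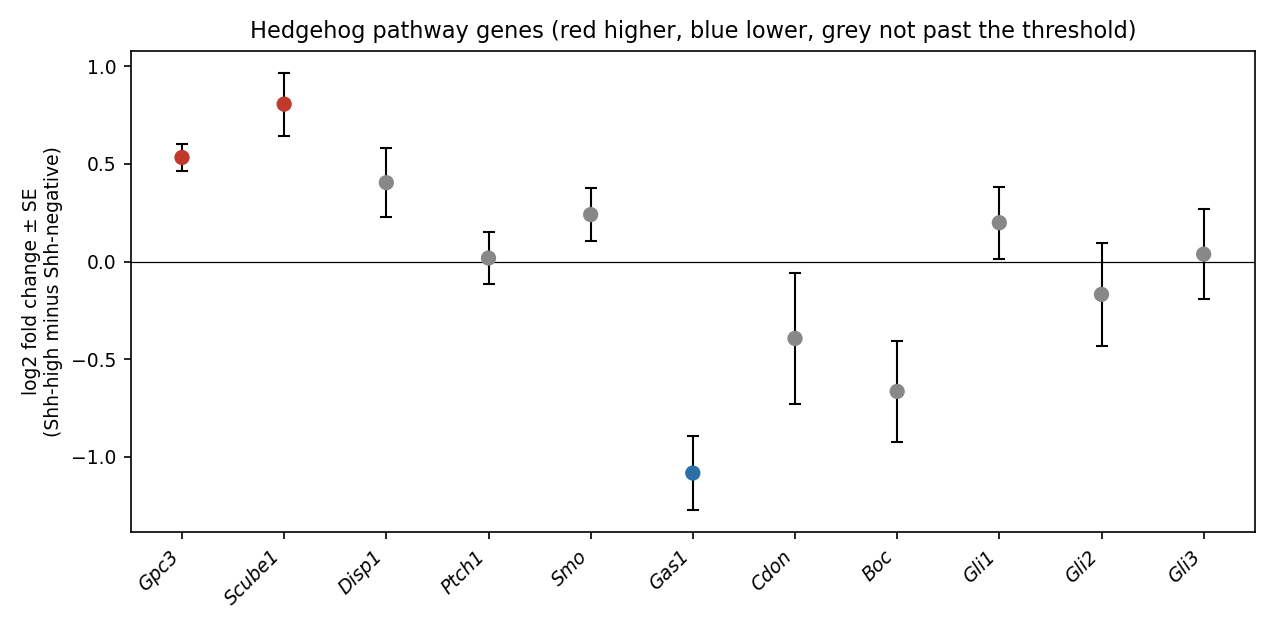
Log2 fold change (Shh-high minus Shh-negative) of Hedgehog pathway genes with the standard error of the edgeR fit over 6 sums. Gpc3 and Scube1 were higher and Gas1 lower, and the 8 grey genes, with Ptch1 at 0.02 and Gli1 at 0.20, did not pass the threshold.

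Wnt genes moved in both directions, and most did not pass the test. Sp5 (chromosome 2, 70474923 to 70477729 on GRCm38), a transcription factor induced by Wnt signalling, stood at 89.2, 63.9 and 82.9 CPM in Shh-high cells and at 4.18, 14.53 and 27.2 CPM in Shh-negative cells (log2 1.97 ± 0.18, adjusted p = 3.87e-09). The groups did not overlap, and a Sp5 UMI was seen in 41.7%, 51.5% and 54.2% of Shh-high against 8.70%, 18.4% and 20.3% of Shh-negative cells. Wif1, a secreted Wnt inhibitor, rose from 32.4, 80.4 and 83.6 CPM to 93.6, 148 and 159 CPM (log2 0.90 ± 0.09, adjusted p = 3.07e-08). Axin2, the general feedback gene, did not pass, at 31.2, 41.5 and 51.5 CPM against 23.0, 38.3 and 35.2 CPM (log2 0.30 ± 0.14, adjusted p = 0.238).

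In all, 4 of 15 tested feedback and antagonist genes rose and 2 fell (median log2 0.17), where 3.18% and 3.35% of all genes tested did. The rises numbered 2 without placode-enriched library 1 or without library 2. At a like placode score 2 of 13 rose and 2 fell, with a median of -0.031. Besides Sp5 and Wif1 the others higher were Nkd1 (1.17) and Dkk3 (0.86), and neither passed without library 1 (1.12 and 1.01) or library 2 (1.12 and 0.72). Sostdc1, an antagonist of Wnt and bone morphogenetic proteins known from the placode margin, stood at 114, 118 and 80.4 CPM against 140, 208 and 194 CPM (log2 -0.996 ± 0.10, adjusted p = 9.87e-09). Myc, listed here as a Wnt target, fell by 1.07 ± 0.20.

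Of 17 receptor and effector genes 3 rose (0 with DESeq2, and 0 of 16 at a like placode score): Ctnnb1, encoding beta-catenin (0.19 ± 0.04), and the factor genes Tcf7 (0.63 ± 0.16) and Lef1 (0.22 ± 0.06). Without placode-enriched library 1 only 1 of these, Ctnnb1, passed, with Tcf7 at 0.75 and Lef1 at 0.18, and Lef1 also missed the threshold without library 2 (0.22). Of 11 tested ligand and secretion genes 1 rose and 4 fell, with 0 and 3 without library 1 and 1 and 2 without library 2. Wnt10b, the placode ligand gene, rose from 24.1, 30.8 and 36.2 CPM to 58.0, 48.6 and 47.6 CPM (log2 0.56 ± 0.14, adjusted p = 0.0117), which did not pass without library 1 (0.55). Wnt7b fell from 43.9, 26.9 and 25.8 CPM to 13.4, 18.4 and 10.5 CPM (log2 -1.005 ± 0.19), and Wnt3a fell by 2.26 ± 0.60 on 7 against 31 UMIs in all. Wnt16 (-0.999 ± 0.22) and Wls (-0.45), the Wnt secretion factor gene, were also lower, and Wnt16 did not pass without library 2 (-0.67).

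The promoter of Sp5 is shown as an example that held the core TCF/LEF motif CTTTGA, the DNA word read by the Wnt effectors, in 2 places. It stands next to those of Nrp2, which was also higher, and Lmo1, which was lower, with 1 match each. Among other named genes, Frem2, also higher, held 2 matches as well, and Sox21, Sema3e, Igf2 and Slbp held 1 each. The sequences run 5′ to 3′ on the gene's strand from 250 bases before to 50 bases after the start, from RefSeq on GRCm38.p6, and capitals mark CTTTGA or its reverse complement TCAAAG.
Sp5, chr2:70474673-70474972, plus strand: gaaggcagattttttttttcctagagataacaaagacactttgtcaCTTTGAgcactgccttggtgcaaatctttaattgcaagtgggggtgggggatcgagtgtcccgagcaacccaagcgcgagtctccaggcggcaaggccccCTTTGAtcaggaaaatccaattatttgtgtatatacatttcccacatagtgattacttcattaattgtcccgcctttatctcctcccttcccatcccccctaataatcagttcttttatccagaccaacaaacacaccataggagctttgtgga
Nrp2, chr1:62703067-62703366, plus strand: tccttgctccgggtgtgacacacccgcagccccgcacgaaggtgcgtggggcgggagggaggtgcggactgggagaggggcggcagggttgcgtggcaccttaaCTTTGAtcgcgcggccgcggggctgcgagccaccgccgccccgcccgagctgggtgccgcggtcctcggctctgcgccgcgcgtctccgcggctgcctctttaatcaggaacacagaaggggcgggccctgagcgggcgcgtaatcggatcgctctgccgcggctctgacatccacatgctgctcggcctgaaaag
Lmo1, chr7:109175158-109175457, minus strand: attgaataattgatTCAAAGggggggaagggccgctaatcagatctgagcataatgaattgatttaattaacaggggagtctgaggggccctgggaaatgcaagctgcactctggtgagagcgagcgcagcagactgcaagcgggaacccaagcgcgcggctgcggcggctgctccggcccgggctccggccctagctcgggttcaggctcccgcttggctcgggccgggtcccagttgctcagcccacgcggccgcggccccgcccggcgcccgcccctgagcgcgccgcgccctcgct
The motif was found on either strand in 12.1% of 232 promoters of higher genes and in 10.3% of 252 promoters of lower genes, against 11.2% of the 7636 promoters matched to tested genes and 16.2% of all 27025 promoters in the table. A GLI motif (GACCACCC) was in 1.29% and 0.397% (0.930% of tested genes), the NF-kB consensus motif in 34.9% and 29.8% (26.9%) and an ETS motif (CCGGAAGT) in 1.29% and 7.54% (9.81%). A match is a description of letters, and these shares were not tested.

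In the ectodysplasin and NF-kB list, 3 of 18 tested genes rose and 0 fell, where 3.18% and 3.35% of all genes tested did. The lowest value in the list, that of Cxcl10 (-0.81), did not pass. Without the total epithelium library 3 rose and 1 fell, and at a like placode score 1 of 16 rose. Tnfaip3, an NF-kB target that restrains the pathway, stood at 29.0, 30.5 and 20.1 CPM against 15.7, 13.5 and 9.41 CPM (log2 1.06 ± 0.19, adjusted p = 2.37e-04). Madcam1, the gene of the sorting antigen, stood at 64.7, 87.9 and 76.8 CPM against 13.6, 49.3 and 57.9 CPM (log2 0.67 ± 0.13), and Birc3, an NF-kB-induced survival gene, rose by 0.61 ± 0.18. Only Tnfaip3 passed without placode-enriched library 1, with Madcam1 at 0.63 and Birc3 at 0.74, and Birc3 also missed the threshold without library 2 (0.49). The NF-kB inhibitor gene Nfkbia stood at 0.13 and did not pass.

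Fibroblast growth factor genes moved in both directions, with 1 of 12 higher and 2 lower, where 3.18% and 3.35% of all genes tested were. Dusp6, a feedback phosphatase induced by this signal, stood at 618, 690 and 597 CPM against 369, 531 and 505 CPM (log2 0.34 ± 0.06, adjusted p = 9.76e-05). The receptor gene Fgfr2 fell by 0.55 ± 0.11 and, without placode-enriched library 1, by 0.52 without passing. Of 24 genes of bone morphogenetic protein and transforming growth factor beta signalling, Tgfb2 and Bmp7 (0.25 ± 0.07) rose and Fst fell. Bmp7 did not pass without library 1 (0.27) or library 2 (0.28), and Bmp4 was at 1.06 to 4.46 CPM in every group and did not pass (0.42 ± 0.50).

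Of 14 tested placode markers outside the gate 12 rose and 0 fell, where 3.18% and 3.35% of all genes tested did. The lowest value, that of Cxcl10 (-0.81), did not pass. Rises numbered 9 without placode-enriched library 1, 8 with DESeq2, 5 with no library block and 9 of 13 at a like placode score. Without the total epithelium library 12 rose and 1 fell. Of 19 placode transcription factor genes, which share some of these markers, 8 rose and 0 fell (median log2 0.38). Their rises numbered 5 without library 1, 3 with DESeq2 and 4 of 18 at a like placode score. Lhx2, a factor of hair placodes and later of follicle stem cells, stood at 58.0, 60.2 and 55.6 CPM against 1.05, 14.9 and 18.8 CPM (log2 1.92 ± 0.20, adjusted p = 6.33e-08). Sox21 rose by 0.87 ± 0.14, Sox11 from 25.1, 40.8 and 49.5 to 42.4, 69.2 and 80.4 CPM (0.69 ± 0.11), Trps1 by 0.51 and Sox4 by 0.40. Without library 1, Msx2 (0.64, then 0.57), Irx3 (0.54, then 0.24) and Zfp703 (0.38, then 0.45) did not pass, and Msx2 (0.71) and Zfp703 (0.45) did not without library 2. Foxi3, a placode factor gene, was too low to test, at 4.46, 1.70 and 2.48 CPM against 0, 0.354 and 0.697 CPM. Dlx3 and Gata3, factors of epidermal differentiation, did not pass (-0.30 and 0.21).

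Axon guidance genes, which also steer cell contacts in epithelia, rose in 8 of 35 cases and fell in 0 (4 rises without placode-enriched library 1 or with DESeq2, 1 with no library block, and 2 of 27 at a like placode score). Robo2, a receptor for Slit proteins, stood at 29.0, 32.8 and 30.0 CPM against 3.14, 7.80 and 9.76 CPM (log2 1.89 ± 0.21, adjusted p = 1.29e-07), and its relative Robo1 rose by 0.85 ± 0.13. Nrp2 (chromosome 1, 62703285 to 62818695 on GRCm38), a receptor for class 3 semaphorins, stood at 60.2, 81.4 and 91.4 CPM against 10.5, 35.8 and 47.0 CPM (log2 1.10 ± 0.13, adjusted p = 5.10e-07). The semaphorin genes Sema3e (1.19 ± 0.25) and Sema6a (0.74) were higher, and Sema3e did not pass without library 1 (0.85). Nrp1, the related neuropilin gene, stood at -0.58 and did not pass.

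Of the other secreted placode signals, 2 of 9 tested genes rose and 1 fell, where 3.18% and 3.35% of all genes tested did. Pthlh (chromosome 6, 147252101 to 147264183 on GRCm38), encoding parathyroid hormone-like hormone, stood at 138, 189 and 155 CPM against 53.4, 75.5 and 71.8 CPM (log2 1.19 ± 0.09, adjusted p = 6.49e-11), and every Shh-high value lay above every Shh-negative value. Bdnf, a neurotrophin gene, stood at 82.5, 122 and 138 CPM against 36.6, 100 and 102 CPM (log2 0.37 ± 0.09), and Ctgf, a matrix-associated growth factor gene, fell by 0.92 ± 0.20. Neither passed without placode-enriched library 2 (0.38 and -0.69). In the Notch list 1 of 13 genes, the target gene Nrarp, rose (0.49 ± 0.12), beside the same 3.18% over all genes tested. Nrarp did not pass without library 1 (0.53) or library 2 (0.48).

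Junction genes rose in 3 of 21 cases and fell in 1, where 3.18% and 3.35% of all genes tested did. Without placode-enriched library 1 the rises numbered 0. Cdh3, encoding P-cadherin, the cadherin of placodes and follicle buds, stood at 161, 181 and 177 CPM against 115, 141 and 141 CPM (log2 0.32 ± 0.07, adjusted p = 4.98e-03), and Cdh1, encoding E-cadherin, did not pass (-0.39). Cldn6 (0.53) and Tjp1 (0.64), tight junction genes, rose, and Perp, of the desmosome, fell by 0.40 ± 0.06. Without library 1 Cdh3 (0.33), Cldn6 (0.49) and Tjp1 (0.65) did not pass, nor did Tjp1 (0.61) without library 2.

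Actin and migration genes split evenly, with 6 of 38 higher and 6 lower, where 3.18% and 3.35% of all genes tested were. These counts were 2 and 3 without placode-enriched library 1 and 4 and 3 without library 2. Cyfip2, a subunit of the actin-nucleating WAVE complex, stood at 42.4, 95.5 and 109 CPM against 9.42, 19.8 and 39.4 CPM (log2 1.77 ± 0.14, adjusted p = 2.03e-10). Tmsb4x, encoding the actin-binding peptide thymosin beta 4, was lower (-0.38). Among 30 matrix and integrin genes 4 rose and 1 fell, with 1 and 0 without library 1 and 2 and 2 without library 2. Fn1, encoding fibronectin, stood at 69.1, 115 and 141 CPM against 31.4, 68.0 and 85.0 CPM (log2 0.73 ± 0.09, adjusted p = 2.26e-06). Frem1 (0.40) and Frem2 (0.43), basement membrane genes, did not pass without library 1 (0.38 and 0.24) or library 2 (0.51 and 0.49), and the integrin gene Itga6 (-0.48) did not without either (-0.51 and -0.53).

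Of 17 genes of the basal epidermis 7 fell and 0 rose (median log2 -0.44), with 4 falls of 16 at a like placode score and 0 with no library block. Krt15 (chromosome 11, 100131758 to 100135928 on GRCm38), a basal keratin, stood at 444, 213 and 176 CPM against 841, 363 and 324 CPM (log2 -0.89 ± 0.06, adjusted p = 6.73e-12). The main basal keratins Krt5 (-0.60) and Krt14 (-0.30) were lower too. Igfbp2, a binder of insulin-like growth factors, fell from 349, 188 and 161 to 154, 82.8 and 95.5 CPM (-1.04 ± 0.08), and Lmo1, a LIM-only cofactor gene, from 276, 96.4 and 88.5 to 118, 49.2 and 53.4 CPM (-0.97 ± 0.10). Trp63, the master regulator of stratified epithelia, did not pass (0.09), nor did Col17a1 of the hemidesmosome (0.03). Without placode-enriched library 1 or 2 the basal gene Anxa1 (-0.82) did not pass (-0.69 and -0.70).

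Besides Dmkn, the suprabasal list had falls in Sfn (-0.33 ± 0.06) and in the cell cycle inhibitor gene Cdkn1c (-0.84 ± 0.12) and a rise in Calml3 (0.82), 1 of 10 genes up and 3 down. Calml3 did not pass without placode-enriched library 2 (0.37), and Sfn did not without library 1 (-0.26). The summed suprabasal score of the gate had medians of 6.25, 0.663 and 0.603 per 10000 UMIs in Shh-high and 6.18, 0.847 and 0.697 in Shh-negative cells. The gate capped this score in both groups, so these values only describe the selected cells. Of 9 tested genes of the placode edge and early follicle 4 fell and 1 rose, with 2 falls without library 1 or library 2 (median log2 -0.35). At a like placode score, in fewer cells, 2 of 8 tested genes were higher and 1 lower, with a median of 0.034. Over all gated cells the falls were in Krt15 and Gas1, given above, the growth factor binder gene Igfbp3 and the collagen gene Col18a1. The rise was in Krt17, a keratin of skin appendages, at 1052, 1147 and 941 CPM against 367, 863 and 762 CPM (log2 0.52 ± 0.09, adjusted p = 2.55e-04).

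Most cell cycle genes did not pass the test in either direction. Of 43 S phase genes 5 fell and 0 rose (median log2 -0.14), where 3.35% and 3.18% of all genes tested did. The falls numbered 0 without placode-enriched library 1 or with DESeq2. Rrm2, a ribonucleotide reductase gene, stood at 158, 108 and 101 CPM against 183, 163 and 121 CPM (log2 -0.44 ± 0.08, adjusted p = 6.32e-04), and -0.29 without library 1. Of 54 genes of G2 and M phase 0 passed in either direction with edgeR and 0 with DESeq2, with Mki67 at 89.2, 143 and 124 CPM against 76.4, 142 and 143 CPM (-0.11 ± 0.08, adjusted p = 0.559). The median sum of both lists per cell was 61.9, 81.1 and 65.0 per 10000 UMIs in Shh-high and 92.4, 104 and 92.4 in Shh-negative cells. Summed over all cells of a group, levels did not all go this way. S phase genes stood at 3433, 2952 and 3262 CPM in Shh-high against 3898, 3477 and 3160 CPM in Shh-negative cells. G2 and M phase genes stood at 6731, 8997 and 6953 against 6843, 7802 and 7613 CPM. Among cells at or below the median of the sum per cell in their library, 133 genes were higher and 162 lower.

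Of 15 genes of D cyclins and growth 4 fell and 2 rose, with 3 and 0 without placode-enriched library 1. The imprinted transcripts H19 and Igf2 fell by 0.99 ± 0.07 and 1.13 ± 0.15 on the log2 scale, H19 from 472, 219 and 257 CPM to 288, 103 and 134 CPM. Mycl, a Myc family gene, rose by 0.65 ± 0.11 while Myc fell, and Mycl did not pass without placode-enriched library 1 (0.64). Ccnd2, a D cyclin gene, was lower (-0.19) and the imprinted gene Peg3 higher (0.40 ± 0.10), and Peg3 did not pass without library 1 (0.51) or library 2 (0.38). Of 22 glycolysis and hypoxia genes 10 fell and 0 rose (median log2 -0.24), with 4 falls without library 1, 3 with DESeq2 and 0 with no library block. Aldoa, encoding aldolase, stood at 464, 252 and 331 CPM against 656, 351 and 411 CPM (-0.46 ± 0.05, adjusted p = 6.92e-07), and Ldha, encoding lactate dehydrogenase, was lower by a log2 value of -0.42.

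Of 81 ribosomal protein genes 40 were lower and 0 higher at a small median of -0.08, with 17 lower and 1 higher when scaled by library sums alone and 7 and 16 lower without placode-enriched library 1 and library 2. Many of these genes have near-identical copies, so their single values are uncertain. Stress genes changed in 3 of 17 cases, all falls, where 3.35% of all genes tested fell. They were Mt1 (-0.45 ± 0.07), Hsp90aa1 (-0.24 ± 0.04) and Atf3 (-1.10 ± 0.27), the last of which did not pass without library 1 (-0.23). The immediate-early gene Jun did not pass (0.28).

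**Figure D4:**
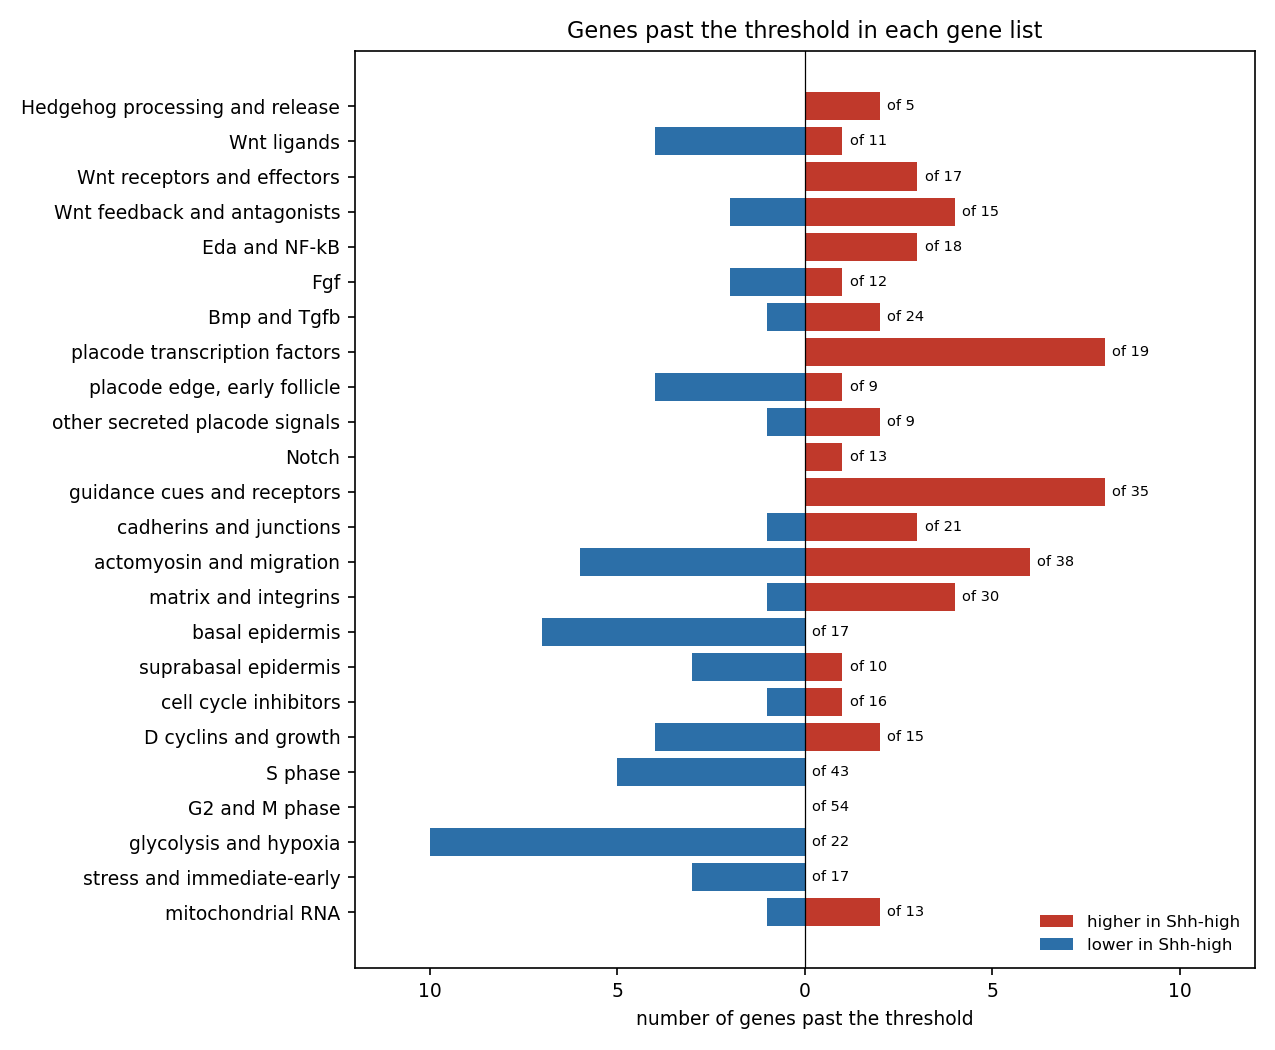
Number of genes per list higher (right, red) and lower (left, blue) in Shh-high cells at an edgeR adjusted p under 0.05, with the number tested beside each bar. Placode transcription factors (8 of 19) and guidance genes (8 of 35) lie on the right only, and basal epidermis (7 of 17) and glycolysis (10 of 22) on the left only, where 3.18% and 3.35% of all tested genes passed in each direction.

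Because the placode score was higher in Shh-high cells, the groups were also compared among cells with a score of 8 to 20, a range chosen after the data were seen. The median scores were then 14.1, 13.4 and 13.6 in Shh-high and 12.8, 11.4 and 12.05 in Shh-negative cells, and the total epithelium library kept 13 and 8 cells. Of 7937 genes tested, 116 were higher and 89 lower, of which 112 and 86 were also called over all gated cells. Of the 602 earlier calls that could be tested, 601 had the same direction. These cells are part of the cells compared before, so the agreement in direction is not independent. Slc40a1 (2.46), Hmcn1 (1.96), S100a6 (1.88), Pthlh (1.15), Pcsk2 (-3.24), Fst (-1.52), Dmkn (-1.29) and Krt15 (-0.81) passed again, with the log2 fold change in parentheses. Sp5 passed with a smaller value, 1.15 ± 0.24 against 1.97 ± 0.18 over all gated cells, and so did Lhx2 (1.40) and Sostdc1 (-0.50). Ptch1 did not pass at -0.038. Madcam1 (0.30), Wnt10b (0.59) and Lef1 (0.20) no longer passed in these fewer cells.

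**Figure D5:**
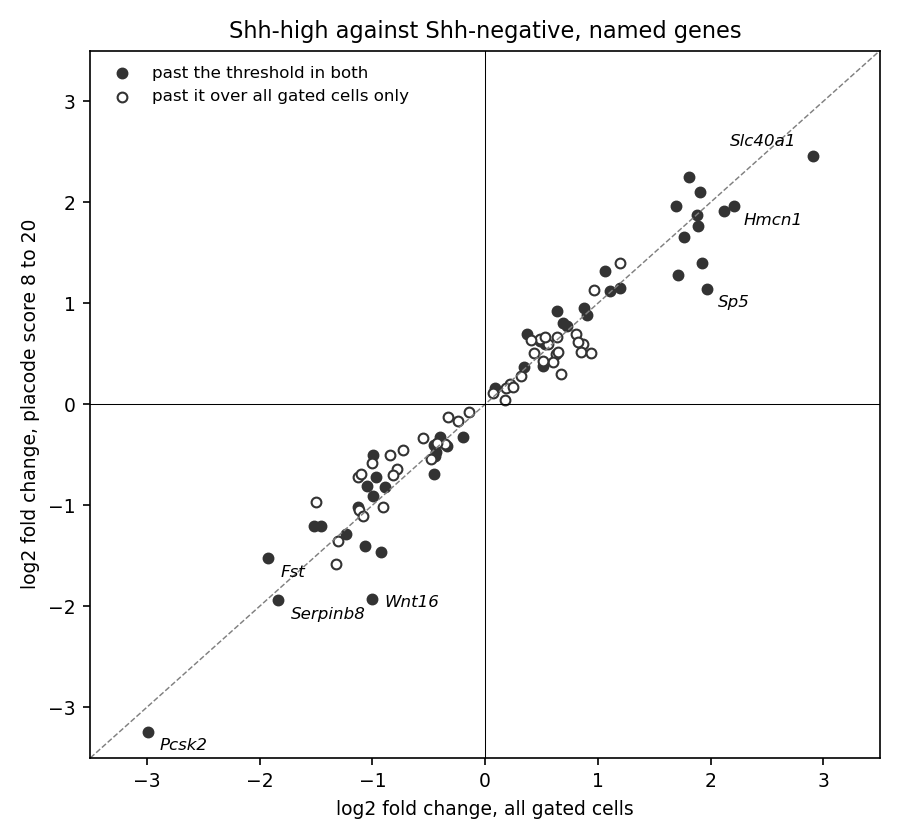
Log2 fold change (Shh-high minus Shh-negative) among cells with a placode score of 8 to 20 per 10000 UMIs (vertical) against that over all gated cells (horizontal), for the 92 named genes that passed over all gated cells and could be tested in both. Filled points (48) passed in both and open points (44) only over all gated cells, and the dashed line marks equal values. All 92 have the same sign, but the cells of the vertical axis are part of those of the horizontal axis.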

How the data were processed

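Both deposited tables hold raw UMI counts, 1 gene a row and 1 cell a column. Per the submitters' processing notes the authors used Cell Ranger, Seurat and the mm10 mouse genome. Their annotation, strand setting and cell filters are not given in the sources used here. In the shared placode-enriched table, the number ending each barcode was taken as the library. The 14656 genes in both tables were used. Libraries held 1601, 1511 and 1571 cells with median depths of 21977, 21652 and 23419 UMIs. Library pairs shared 1, 1 and 2 barcodes, of which 0 were compared cells.

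The members, gene lists and tests were chosen with earlier results of these data known. UMIs were summed per library and group (449715 to 3640186 per sum), the 10 gate genes were removed from the fit and the library sizes, and edgeR 4.0.16 (R 4.3.3) was run with its quasi-likelihood test, TMM, filterByExpr and the library as a block, leaving 2 residual degrees of freedom. P-values were adjusted over all genes by Benjamini and Hochberg at 0.05. CPM are per 1000000 of the sum's UMIs, for the tested genes without the gate genes. Log2 fold changes come from the fit and their standard error is the fold change divided by the root of F. The libraries pair the sums because both groups of a library come from the same pooled embryos; across genes the correlation of their deviations from the group means was 0.28, 0.19 and 0.32. Cells are not replicates. With the library as a block, the p-values measure how the difference between the groups varied over the 3 libraries, which differ in litter and sort.

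Named genes were the 12 largest changes in each direction with a mean of at least 10 CPM and the same sign in every library, up to 4 passing members of each list, a fixed set of pathway genes, and the 3 most extreme genes in each direction of the sort comparison. Further list members named with their values were chosen after these were seen. Shares of cells carry counting error only. Scrublet in scanpy 1.11.5 (expected rate 0.05) called 11, 4 and 4 doublets; none were removed in the comparison reported, and others may remain. On simulated counts the edgeR fit recovered 96.8% of genes changed by 2 and 80.2% of those changed by 1 on the log2 scale among 9879 genes, with 2.89% of its calls false. These rates hold for the simulated counts only. Recovery and false calls in the measured libraries, which differ in litter and sort, were not tested. Gene positions are from GENCODE on GRCm38, and promoters from RefSeq. Alternatives covered tool (DESeq2 1.42.0), scaling, filter, depth, gate, Shh cutoff, Sox9, cell cycle, doublets and each library. A result of the Hedgehog reception list is not reported here.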

Additional observations from a re-analysis of the deposited data

Results flagged for a closer look

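The contrast of Shh-high with Shh-negative cells was compared between the placode-enriched libraries and the total epithelium library by an interaction term in edgeR, which left 1 residual degree of freedom and rests on 24 and 46 cells of the only total epithelium library. It passed at an adjusted p under 0.05 for 25 of 9908 genes (0.252%), and 714 had an unadjusted p under 0.05.

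Sp5 and Lhx2 had a smaller contrast after the sort, with differences (placode-enriched minus total epithelium) of -2.58 and -3.95 on the log2 scale. In both, Shh-negative cells of the total epithelium library were lowest, at 4.18 and 1.05 CPM. A UMI of Sp5 and Lhx2 was seen in only 8.70% and 2.17% of these 46 cells. Their median placode score was 6.93 against 9.91 and 8.70 in the sorted libraries. Whether the score has a part in the smaller contrast was not tested. Krt17 differed by -1.16, again with its lowest level, 367 CPM, in Shh-negative cells of the total epithelium library.

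S100a9, a calcium-binding alarmin gene, differed by 2.50: Shh-high cells held 20.1 against 53.4 CPM without the sort and 137 against 55.3 and 74.1 against 42.9 CPM in the placode-enriched libraries. Its overall rise of 0.88 did not pass without placode-enriched library 1 (0.39). The largest difference was in the unnamed transcript B930036N10Rik (-8.65). It stood at 29.0 against 0 CPM in unsorted epithelium, and at 9.04 against 4.25 and 3.85 against 5.23 CPM in the sorted libraries. In unsorted epithelium it was seen in 12.5% of 24 Shh-high and 0% of 46 Shh-negative cells. The size of this difference thus rests on very few cells and a count of 0. Lockd (1.64) and Osgep (1.23) were lower in Shh-high cells of the total epithelium library, at 26.8 against 70.1 and 55.7 against 131 CPM, and did not pass in the overall comparison.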

How the results depend on the processing

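The 315 higher and 332 lower genes numbered 31 and 10 with no replicate block, 69 and 59 with DESeq2, 61 and 57 with each cell thinned to 5000 UMIs, 124 and 137 with gate and groups set on cells thinned to 10000 UMIs, 206 and 217 among cells of 15000 to 35000 UMIs, 172 and 187 with a placode score of at least 8, 133 and 162 among cells low in cell cycle genes, and 116 and 89 at a score of 8 to 20. Leaving out a library gave 110 to 386 higher and 107 to 440 lower genes, the fewest without placode-enriched library 1. The share of calls that were higher was 48.7%, and 63.5% when scaled by library sums alone, which moved the median of all genes to 0.044. It was 75.6% with no replicate block. All 647 calls had the same direction with DESeq2, with no replicate block and without the total epithelium library. So did the 630 and 634 that could be tested without placode-enriched library 1 and 2. These fits share cells with the main fit, so the agreement in direction is not independent.

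Of 95 named genes that passed, 52 also passed without each library in turn. Their direction changed only for Tyms, to 0.014 among cells low in cell cycle genes. Genes that had not passed changed sign 25 times: Ptch1 to -0.076 (5000 UMIs), -0.17 (any Sox9), -0.35 (low cell cycle) and -0.038 (score 8 to 20); Gli1 to -0.15 and Bmp4 to -0.042 (any Sox9); Gli2 to 0.088 (15000 to 35000 UMIs) and 0.013 (score 8 to 20), with -0.68 to 0.23 over the libraries left out; Gli3 to -0.0051 (DESeq2), -0.061 and -0.28 (Shh-high as 1 or 4 or more UMIs), -0.089 (score of at least 8), -0.14 (any Sox9) and -0.21 (score 8 to 20). Axin2 changed to -0.038 (score 8 to 20), Mki67 ranged from -0.16 to 0.0086 over the libraries left out, Cdkn1a changed to -0.023 (10000 UMIs) and -0.032 (low cell cycle), and Smo and Ccnd1 to -0.048 and 0.19 (low cell cycle). Lockd changed to -0.15 (DESeq2), -0.039 (5000 UMIs) and -0.67 (low cell cycle), with -0.34 to 0.22 over the libraries left out.

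Shh-high cells made up 30.4%, 45.5% and 43.0% of gated cells, 14.6%, 26.2% and 26.4% after thinning to 10000 UMIs, and 44.4% in the total epithelium library and 48.9% in placode-enriched library 2 at a score of at least 8. Alternatives with fewer cells or UMIs hold less depth, and the causes of the lower counts were not tested. A cell with 0 Shh UMIs may still have held Shh transcript, since thinning lowered these shares.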
